A study of Mus musculus with 6 samples.

Results

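The 10 genes described here are targets of p53 that are linked to cell death: Bax, Bbc3, Pmaip1, Fas, Tnfrsf10b, Eda2r, Pidd1, Phlda3, Aen and Perp. They were taken by symbol from the deposited table of 54532 genes, in which each of the 10 symbols has 1 entry. All 10 had a mean of at least 1 FPKM (fragment number per gene length, scaled for each library) over the hearts, and so were among the 12469 genes tested. RNA came from hearts of 15-day-old mice, 3 with the genotype Nat10flox/flox (flox) and 3 labelled Nat10-CKO (CKO), a knockout of Nat10 in cardiomyocytes. Nat10 encodes an RNA acetyltransferase that also takes part in ribosome production, and the series asks what it does in heart development. The promoter that drives the deletion, the part of Nat10 that is removed, and whether the flox mice carry a recombinase are not given in the sources used here.

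p53 is a transcription factor that is held low in resting cells by the ubiquitin ligase MDM2 and that accumulates when DNA is damaged or ribosome assembly is disturbed. Its targets of cell death act at several places. BAX, PUMA (from Bbc3) and NOXA (from Pmaip1) belong to the BCL2 family and act on the outer mitochondrial membrane, FAS, the TRAIL receptor (from Tnfrsf10b) and EDA2R are receptors at the cell surface, and PIDD1 is the scaffold of a caspase-2 activating complex. PHLDA3 holds back the survival kinase AKT, AEN is a nuclease, and PERP is a membrane protein of desmosomes that also takes part in p53-dependent death. Heart muscle cells divide little after the first postnatal weeks, so lost cells are hardly replaced.

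In the coordinates of the deposited table (GRCm38), 4 of the 10 genes lie on chromosome 7: Bbc3 (16308393 to 16318205, plus strand), Bax (45461697 to 45466898, minus), Aen (78895854 to 78911209, plus) and Pidd1 (141438113 to 141444025, minus). Phlda3 lies on chromosome 1 (135766119 to 135769136, plus), Perp on chromosome 10 (18845020 to 18857073, plus) and Tnfrsf10b on chromosome 14 (69767472 to 69784411, plus). Pmaip1 lies on chromosome 18, Fas on chromosome 19 (34290659 to 34327770, plus) and Eda2r on the X chromosome (97333840 to 97377216, minus). Each value below is for the whole gene, all exons together.

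Values of 3 hearts are given below in the order of replicates 1, 2 and 3. Errors of FPKM are SDs, errors of log2 changes (CKO minus flox, on log2(FPKM + 1)) are standard errors, and each group has n = 3. Nat10 itself was at 3.87, 3.78 and 4.57 FPKM in the flox hearts, against 3.69, 3.75 and 4.18 FPKM with the CKO label. The groups overlapped (−0.06 ± 0.12 on the log2 scale, limma adjusted p = 0.768). The level of the whole gene, to which other cell types and any undeleted part contribute, therefore checks neither label, and the labels are taken as given. Total counts recovered from the FPKM ran from 15048038 to 16280061 per heart. On the first principal component CKO replicate 1 lay farthest from the flox hearts, at 50 against 14.9 and 23.9 for CKO replicates 2 and 3 and −38.7 to −19.1 for the flox hearts.

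Of the 10 genes, 9 were higher in the CKO hearts and 1, Fas, was not called. For the same 9 genes every CKO heart was above every flox heart. Pmaip1, 1 of the 9, passed the limit of 1 FPKM only through the CKO hearts (group means 0.178 FPKM in flox and 3.16 FPKM in CKO). Without a filter on low genes Pmaip1 was also called (limma adjusted p = 0.016). Of all 12469 genes, 6.93% were called higher and 14.1% in either direction (limma on log2(FPKM + 1), adjusted p under 0.05), and in 19.7% every CKO heart was above every flox heart. The median log2 change of the 10 genes was 1.80, against 0.00 over all genes tested, and 6 of the 10 were among the 100 largest rises. Phlda3 (rank 18), Eda2r (25) and Aen (50) stood highest, and Fas (1385) lowest. Each exact two-sided permutation test over hearts gave p = 0.1 for the 9 genes, the smallest that 3 hearts against 3 allow.

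Whole hearts hold several cell types, and in bulk RNA fewer cells of a type and less RNA per cell cannot be told apart. The summed level of 12 cardiomyocyte markers was 20300 to 26150 FPKM in flox and 15060 to 15710 FPKM in CKO hearts, with 6 of 12 called lower, so heart muscle transcripts were present throughout and lower in each CKO heart. Fibroblast markers summed to 862 to 1124 FPKM in flox and 1267 to 1670 FPKM in CKO hearts (5 of 12 called higher). Macrophage and monocyte markers summed to 118.5 to 140.1 and 149.9 to 264.9 FPKM (1 of 11 tested called higher), and Schwann and neuronal markers to 3.25 to 5.88 and 7.17 to 14.5 FPKM (1 of 4 tested called higher). These 3 sums were thus higher in each CKO heart. Endothelial markers (519.6 to 573.4 and 429.2 to 513.0 FPKM, 1 of 12 called higher and 0 lower) summed to less in each CKO heart. So did smooth muscle and pericyte markers (574.4 to 731.4 and 438.2 to 509.4 FPKM, 2 of 9 tested called lower). The sums overlapped between the groups for epicardial and mesothelial markers (6.44 to 10.8 and 10.04 to 29.9 FPKM, 0 of 4 tested called), erythroid markers (477.1 to 821.6 and 400.4 to 811 FPKM, 0 of 5 tested called) and 12 lymphocyte markers (2.51 to 3.52 and 3.12 to 6.25 FPKM, none with a mean of 1 FPKM). In none of these lists was a marker at 0 in all hearts. All these sums are on the deposited scaling. On it the FPKM of all genes totalled 421735, 396188 and 371297 in flox and 376911, 358255 and 342402 in CKO hearts. Whether small differences, such as that of the endothelial sums, hold on another scaling was not tested. The part of these marker shifts in the results below was not tested.

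**Figure D1:**
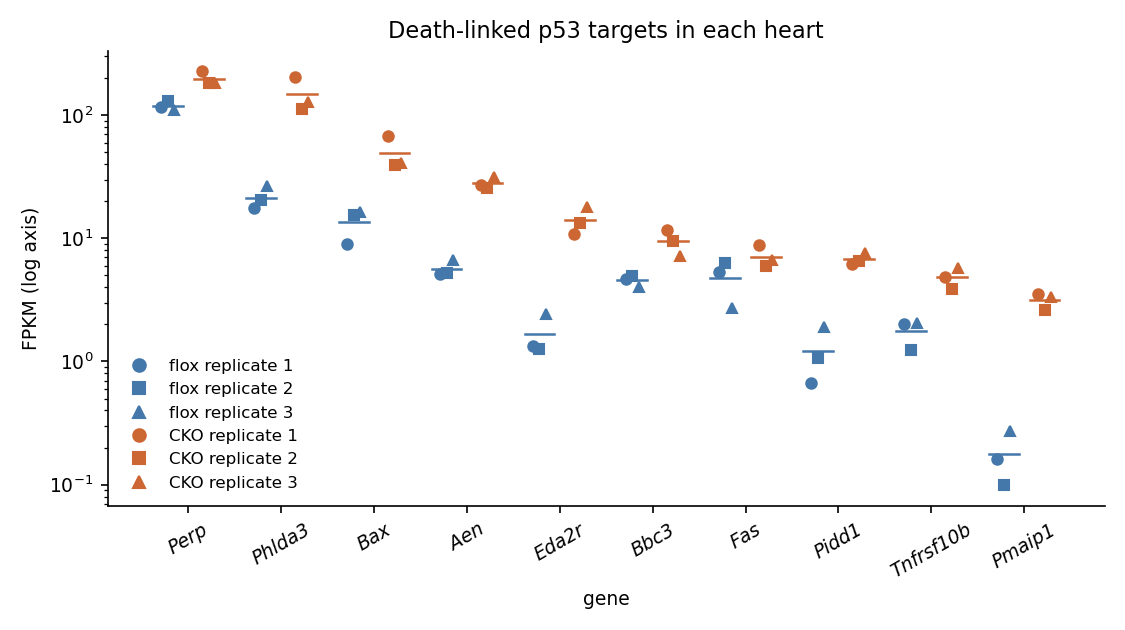
FPKM of the 10 genes in each of the 6 hearts, on a log axis, ordered by the mean of the CKO hearts. Points are hearts and short lines are group means. For 9 genes the 3 CKO hearts lie above the 3 flox hearts, and for Fas the groups overlap.

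Among the mitochondrial genes, Bax and Pmaip1 rose strongly and Bbc3 about doubled in FPKM, with a ratio of group means of 2.08. Bax encodes the effector that opens pores in the outer mitochondrial membrane. The flox hearts held 8.98, 15.3 and 16.3 FPKM of its transcript, the CKO hearts 67.4, 39.2 and 40.9 FPKM. The lowest CKO heart was above the highest flox heart, and CKO replicate 1 was apart from the other two. The group means were 13.5 ± 3.96 and 49.2 ± 15.8 FPKM, a ratio of 3.64, and the rise was 1.79 ± 0.28 log2 units (limma adjusted p = 0.0102). Without CKO replicate 1 the log2 change was 1.54 (limma adjusted p = 0.0197). Bak1, another pore-forming effector of the family, was not called and was added after its values were seen. It stood at 15.1, 13.3 and 15.5 FPKM in flox hearts and 19.6, 15.4 and 15.5 FPKM in CKO hearts. Per length, Bax was below Bak1 in flox replicate 1, slightly above it in the other flox hearts and above it in each CKO heart.

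The stretch before the start of Bax is shown because it holds a match to the binding site of p53. A p53 site is built of a pair of half-sites of 10 bases, and the half-site consensus was searched without mismatch in the RefSeq promoter windows (GRCm38.p6, 250 bases before to 50 after each start). The consensus reads the same on both strands. Windows were found for 7 of the 10 genes. Of all 27025 symbols with a window, 9.55% held a half-site in at least 1 window. Of the 7 genes, Bax and Aen did. Allowing 2 mismatches in all outside the fixed C and G and a gap of up to 13 bases between the half-sites, a full site was found for 4.71% of all symbols and, of the 7 genes, for Bax. The 250 bases before the start of Bax (chr7:45466899-45467148, minus strand) have the half-site in capitals.
Bax: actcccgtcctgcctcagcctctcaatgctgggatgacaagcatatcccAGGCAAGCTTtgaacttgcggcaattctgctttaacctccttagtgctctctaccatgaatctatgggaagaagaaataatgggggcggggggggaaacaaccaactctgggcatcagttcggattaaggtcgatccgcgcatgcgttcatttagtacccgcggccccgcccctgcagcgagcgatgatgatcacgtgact
The match begins at position −201 from the start. A match describes these letters and does not show that p53 was bound there.

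Pmaip1 encodes NOXA, a BH3-only protein that binds and neutralises the survival protein MCL1. The gene was nearly silent in flox hearts, at 0.162, 0.0993 and 0.272 FPKM, which rest on 6, 4 and 12 counts. In CKO hearts it was at 3.50, 2.62 and 3.37 FPKM, from 155, 114 and 141 counts. The 3 CKO hearts were close to each other and far above the flox hearts, although the gene remained the lowest of the 10. The ratio of means was 17.8, while the rise of log2(FPKM + 1) was 1.82 ± 0.15 (limma adjusted p = 0.0019). Adding 1 compresses so low a gene: the log2 change was 3.59 with 0.1 added and 4.14 ± 0.44 with voom on the recovered counts (voom adjusted p = 0.0021). Among the 10 genes Pmaip1 thus had the largest ratio of means, and Phlda3 the largest change of log2(FPKM + 1).

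Bbc3 encodes PUMA, a BH3-only protein that binds the survival members of the BCL2 family. Flox hearts had 4.64, 4.98 and 4.03 FPKM, and CKO hearts 11.6, 9.57 and 7.14 FPKM. The groups did not overlap, but the CKO hearts spread over 1.63-fold. On the log2 scale Bbc3 rose by 0.89 ± 0.17 (limma adjusted p = 0.0194). The call was lost without flox replicate 1 (adjusted p = 0.0754), without flox replicate 2 (0.0603) and without a filter on low genes (0.0638).

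Of the receptors, Eda2r and Tnfrsf10b rose and Fas was not called. Eda2r encodes a receptor for the A2 form of ectodysplasin. It stood at 1.33, 1.27 and 2.44 FPKM without the knockout and at 10.8, 13.3 and 18.1 FPKM in CKO hearts. Here CKO replicate 1, which had the most Bax, was the lowest of its group. The means were 1.68 ± 0.657 and 14.1 ± 3.70 FPKM, a ratio of 8.37, and the rise was 2.49 ± 0.23 log2 units (limma adjusted p = 0.0025).

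Tnfrsf10b encodes the death receptor for TRAIL. The flox hearts had 2.02, 1.23 and 2.06 FPKM and the CKO hearts 4.82, 3.88 and 5.75 FPKM. The groups did not overlap. Tnfrsf10b rose by 1.07 ± 0.18 log2 units (limma adjusted p = 0.0124), and by 1.46 with voom. It was called without each heart in turn, with adjusted p up to 0.0454, but not without a filter on low genes (0.0505).

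Fas encodes the receptor for FAS ligand. Its flox values were 5.28, 6.27 and 2.69 FPKM, its CKO values 8.77, 5.91 and 6.66 FPKM. Flox replicate 2 was above CKO replicate 2, and flox replicate 3 was well below the other flox hearts, at a highest-to-lowest ratio of 2.33 within the group. The difference of 0.54 ± 0.26 log2 units did not pass (limma adjusted p = 0.201), with a 95% interval from −0.07 to 1.15. The exact permutation test gave p = 0.2. Without flox replicate 3 the log2 change was 0.25, and without flox replicate 2 it was 0.74, and in neither case was Fas called (limma adjusted p = 0.398 and 0.159).

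The ligands, adaptors and initiator caspases that work with these receptors and with PIDD1 had no gene called. Of 12 genes, 10 were tested, and limma called 0 (1 at an unadjusted p under 0.05, and 0 called by voom), at a median log2 change of 0.03. Over all genes tested 14.1% were called in either direction. With 10 genes, 0 called does not stand apart from that share. Without CKO replicate 1, and also with TPM, total counts or array weights, 1 was called higher. Fasl, the ligand of FAS, had 0 counts in all 6 hearts, and Eda, the ectodysplasin gene, averaged 1.04 ± 0.286 FPKM over flox and 0.906 ± 0.169 FPKM over CKO hearts and was not tested, since its mean was under 1 FPKM. Both were named after their values were seen.

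**Figure D2:**
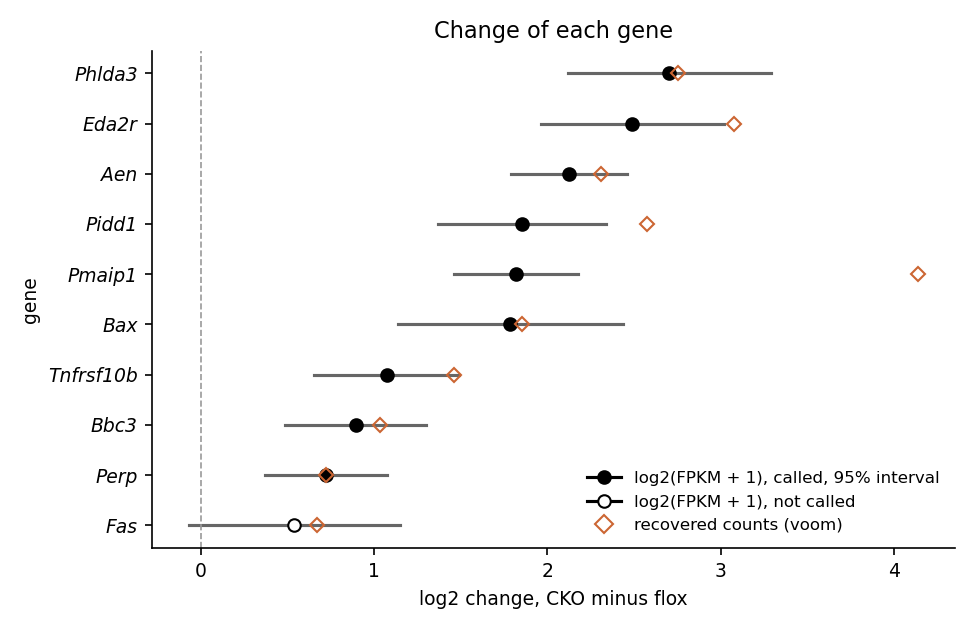
Log2 change, CKO minus flox, of the 10 genes. Circles with 95% intervals are from limma on log2(FPKM + 1), filled where called, and diamonds are from voom on recovered counts. Phlda3 and Eda2r changed most on the first scale, Pmaip1 on the second, and the interval of Fas crosses 0.

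Pidd1, Phlda3, Aen and Perp act outside both groups. Pidd1 encodes the death-domain scaffold that, with CRADD, activates caspase-2. Levels were 0.663, 1.06 and 1.90 FPKM in the flox group, and 6.18, 6.56 and 7.60 FPKM in the CKO group. The CKO hearts lay within 1.23-fold of each other, whereas the flox hearts spread over 2.87-fold. The ratio of means was 5.61 and the rise 1.85 ± 0.21 log2 units (limma adjusted p = 0.0041). Its partner genes Cradd and Casp2, named after their values were seen, had log2 changes of −0.11 ± 0.16 and 0.00 ± 0.15 and were not called.

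Phlda3 encodes a small protein with a pleckstrin homology domain that competes with AKT for membrane lipids. From 17.5, 20.4 and 26.4 FPKM in flox hearts it went to 204, 111.7 and 128.8 FPKM in CKO hearts. CKO replicate 1 was again apart, at 1.83 times the lowest heart of its group. The means were 21.4 ± 4.52 and 148.2 ± 49.1 FPKM, and the rise was 2.70 ± 0.25 log2 units (limma adjusted p = 0.0028), or 2.45 without CKO replicate 1 (limma adjusted p = 0.006). Its paralog Phlda1 was not called (0.31 ± 0.26) and Phlda2 had 0 counts in all hearts. Of 8 tested paralogs of the 10 genes, limma called 0 (3 at an unadjusted p under 0.05, and 1 called by voom), at a median of 0.26. With 8 genes this does not stand apart from the 14.1% called over all genes. Without flox replicate 3, 1 was called lower, and other filters, scalings or array weights called between 0 and 3. The 250 bases before the start of Phlda3, shown because it rose most on the tested scale, lie at chr1:135765835-135766084 on the plus strand and hold no half-site in this search, so none is in capitals.
Phlda3: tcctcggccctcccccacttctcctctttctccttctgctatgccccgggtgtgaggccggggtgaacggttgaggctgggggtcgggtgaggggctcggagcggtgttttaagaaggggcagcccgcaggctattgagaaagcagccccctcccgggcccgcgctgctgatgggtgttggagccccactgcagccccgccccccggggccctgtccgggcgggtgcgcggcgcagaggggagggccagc
These letters are a part of the window searched, which also took in 50 bases after the start, and nothing outside that window was searched.

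Aen encodes a nuclear exonuclease that takes part in breaking down DNA in dying cells. It had the smallest standard error of the 10, with 5.10, 5.23 and 6.71 FPKM for flox and 27.3, 25.5 and 31.4 FPKM for CKO hearts. The groups were far apart, and each was tight. The means were 5.68 ± 0.893 and 28.1 ± 3.05 FPKM, a ratio of 4.94, and the rise was 2.12 ± 0.14 log2 units (limma adjusted p = 0.0013). Its half-site, in capitals with 10 bases on each side (chr7:78895927-78895956, plus strand), begins at position 10 from 1 of its RefSeq starts and at −121 from the other.
Aen: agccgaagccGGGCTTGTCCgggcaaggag
Of the other p53 targets listed, 10 of the 18 symbols with a window held a half-site, which is 55.6%. Among the 10 death-linked genes it was 2 of 7 (28.6%). The share was 2 of 9 (22.2%) for apoptosome and effector caspase genes and 3 of 14 (21.4%) for p53 and its regulators. It was 1 of 11 for the receptor and PIDD1 partners, 1 of 11 for other BCL2 family genes and 1 of 10 for paralogs.

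Perp had the highest mean level of the 10 genes in both groups, apart from all others in flox hearts and overlapping with Phlda3 in CKO hearts. It rose least among the 9. It was measured at 116.9, 131.4 and 109.5 FPKM in flox hearts and 226.7, 182 and 184 FPKM in CKO hearts. The groups did not overlap, and both were tight. The ratio of means was 1.66 and the rise 0.72 ± 0.15 log2 units (limma adjusted p = 0.0237). The call was lost without flox replicate 1 (adjusted p = 0.107), flox replicate 2 (0.0700), flox replicate 3 (0.0578) or CKO replicate 3 (0.0569), and without a filter (0.0599).

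By level per length, the order in flox hearts was Perp, Phlda3, Bax, Aen, Fas, Bbc3, Tnfrsf10b, Eda2r, Pidd1 and Pmaip1. Neighbours whose hearts overlapped in level were Aen and Fas, Fas and Bbc3, Tnfrsf10b and Eda2r, and Eda2r and Pidd1. In CKO hearts the first 4 were the same, followed by Eda2r, Bbc3, Fas, Pidd1, Tnfrsf10b and Pmaip1. There the overlapping neighbours were Perp and Phlda3, Eda2r and Bbc3, Bbc3 and Fas, and Fas and Pidd1. Eda2r moved from place 8 to place 5 of the 10, and Fas from place 5 to place 7.

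The CKO hearts did not rank alike for all genes. CKO replicate 1 was the highest of its group for 6 genes (Bax, Bbc3, Pmaip1, Fas, Perp and Phlda3) and CKO replicate 3 for the other 4 (Tnfrsf10b, Aen, Eda2r and Pidd1). CKO replicate 2 was the lowest for 7 of the 10, and CKO replicate 1 for Eda2r and Pidd1. Flox replicate 3 was the highest flox heart for 7 genes, and for Bbc3, Fas and Perp it was the lowest. The exceptions in the flox group were thus among the 6 genes with a maximum in CKO replicate 1. With 3 hearts in a group these orders are given as a description.

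**Figure D3:**
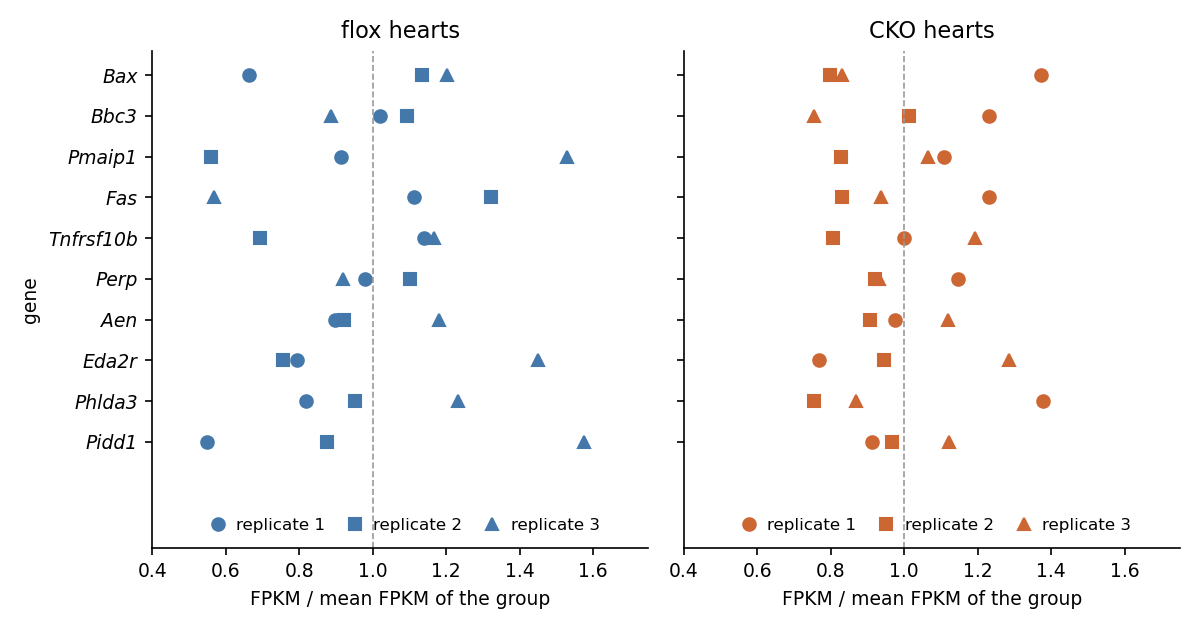
Level of each of the 10 genes in a heart divided by the mean of its group, flox on the left and CKO on the right. The dashed line is the group mean. CKO replicate 1 is highest for 6 genes and CKO replicate 3 for 4.

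Other genes listed as targets of p53 went both ways. Of 23 tested, 10 were called higher, 3 lower and 10 not called, at a median log2 change of 0.57. The 4 largest called changes of log2(FPKM + 1), given here with their ratios of means, were Cdkn1a, the cell cycle inhibitor p21 (15.0-fold in means), Zmat3, an RNA-binding protein (4.70-fold), Rps27l, a ribosomal protein paralog (3.34-fold), and Psrc1, a microtubule-associated protein (4.79-fold). On the log2 scale Cdkn1a rose by 3.82 ± 0.23 (limma adjusted p = 0.0013). Psrc1 passed the limit of 1 FPKM only through the CKO hearts (group means 0.814 FPKM in flox and 3.89 FPKM in CKO). The 3 lower genes, named after their values were seen, were Gadd45a, a growth-arrest gene (−1.16), Sesn1, a stress-induced inhibitor of mTOR signalling (−1.03), and Ddb2, a DNA damage recognition factor (−0.65). The 3 were listed here as p53 targets, and their direction was opposite to that of the 9 death-linked genes. Whether p53 acts on each of them in mouse hearts was not tested. Sesn2, the paralog of Sesn1, was called higher and was named after its values were seen (1.46 ± 0.15, 3.46-fold in means, limma adjusted p = 0.0037). Without flox replicate 1 the list had 6 called higher and none lower, without flox replicate 2 it had 6 higher and 1 lower, and Psrc1, Gadd45a and Ddb2 lost their calls in both (limma adjusted p up to 0.0875), Sesn1 without flox replicate 1 (0.0543). Without a filter 7 were called higher and 1 lower.

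Of p53 and its regulators, 9 of 15 were tested, 3 rose and 6 were not called, at a median of 0.03. Mdm2 and Ppm1d, the latter not called, are also in the list of other p53 targets and are counted in both lists. Mdm2, both a target and the main antagonist of p53, rose 2.58-fold in means (1.30 ± 0.16 log2 units, limma adjusted p = 0.0057) and was called without each heart in turn. Rpl5 (0.80) and Rpl11 (0.96), ribosomal proteins that bind MDM2 when ribosome assembly fails, rose also, but lost the call without any single flox heart, and Rpl5 also without CKO replicate 3 (limma adjusted p up to 0.126). Reads of ribosomal protein genes can be shared with processed pseudogenes, which was not measured here. Trp53, the gene of p53, named after its values were seen, had 8.59, 8.92 and 12.6 FPKM in flox hearts, and 13.9, 13.01 and 13.9 FPKM in CKO hearts. The groups were next to each other without overlap, and it was not called (0.42 ± 0.16 log2 units, limma adjusted p = 0.114).

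Downstream of the 10 genes, the caspase machinery had no called gene. Of 12 apoptosome and effector caspase genes, limma called 0 (3 at an unadjusted p under 0.05, and 1 called by voom), at a median of −0.06. With 12 genes this does not stand apart from the 14.1% called over all genes. Without flox replicate 3, 1 was called, and without CKO replicate 1, 2 were, while other filters, scalings or array weights called between 0 and 3. Of the other BCL2 family genes, 10 were tested, at a median of 0.16. Limma called 2 higher, also near the share over all genes, and 8 were not called, while voom called 3. The third, Bcl2l11, the gene of the BH3-only death protein BIM, was named after its values were seen. It was at 8.45, 5.31 and 3.77 FPKM in flox hearts and 1.97, 3.40 and 2.42 FPKM in CKO hearts, without overlap. Its log2 difference of −0.89 ± 0.26, the largest of the list in size, did not pass with limma (adjusted p = 0.0620), and voom gave −1.12 (adjusted p = 0.0429). Both that rose with limma encode survival proteins, Bcl2 (1.79 ± 0.598 against 3.77 ± 0.514 FPKM, 0.79 ± 0.18 log2 units, limma adjusted p = 0.0289) and Bcl2l1, the gene of BCL-XL (8.90 ± 1.64 against 15.8 ± 2.70 FPKM, 0.76 ± 0.17 log2 units, limma adjusted p = 0.0290). Both calls depended on single hearts (limma adjusted p up to 0.112). Bcl2 was lost without flox replicates 1 or 2 or CKO replicates 2 or 3, and Bcl2l1 without any heart but CKO replicate 2. Death genes of the list went both ways. Bok rose by 0.81 ± 0.27 log2 units without overlap, but was not called (limma adjusted p = 0.0884). Bmf changed by −0.37 ± 0.15 without overlap and was not called (limma adjusted p = 0.139). Bid, which was not tested, had a ratio of means of 2.62. Bok, Bmf and Bid were named after their values were seen.

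**Figure D4:**
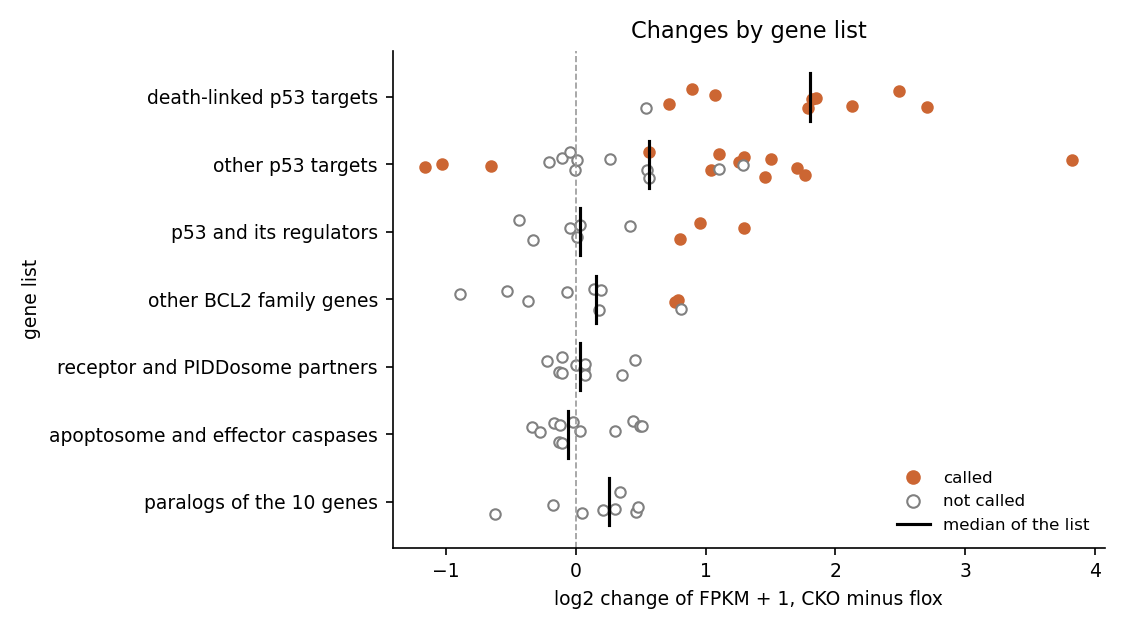
Log2 change of FPKM + 1, CKO minus flox, of each tested gene by list. Filled points were called, open points were not, and black lines are list medians. The medians are 1.80 for the 10 death-linked targets, 0.57 for other p53 targets and between −0.06 and 0.26 for the other lists. Mdm2 and Ppm1d are drawn both among other p53 targets and among p53 and its regulators.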

How the data were processed

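The members and gene lists were chosen with earlier results of these data known. Per the labels, poly-T beads served to enrich messenger RNA, and libraries were read as paired ends. Per the submitters' processing notes and series text, reads were aligned with HISAT2 2.0.5 to GRCm38 and counted with featureCounts 1.5.0-p3. The sources used here do not say if counting used strand. The authors deposited FPKM, 1 column per heart. Multiplied by gene length, 100% of the values above 0 were whole multiples of a fixed unit in each library (tolerance 0.01), and these multiples are the recovered counts. The deposited scaling was kept. It was not by total counts: the library size implied by the unit was 13991400 in flox replicate 1, against 15524103 recovered counts. The implied sizes ranked the hearts in the same order as size factors from median ratios of the counts (0.8927 in flox replicate 1 to 1.067 in CKO replicate 1).

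Genes averaging 1 FPKM or more were tested on log2(FPKM + 1) with limma 3.58.1 in R 4.3.3 (genotype as the only term, moderation with a trend, two-sided, Benjamini-Hochberg adjustment over all 12469 genes). Fold changes on that scale understate the change of low genes. The fit was tested on simulated data. Named were all 10 members, Nat10, and from each pathway list up to 4 called genes with the largest change; others are marked as named after their values were seen. The replicates are independent biological replicates, per the labels. In the deposited coordinates, Bax overlaps Gm45808 (0 counts in every heart) and Fas overlaps Gm27818 (at most 1 count), and the other 8 members overlap no listed gene.

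Alternatives were other pseudocounts, filters, scalings and variance models, voom, the replicate block and each heart left out.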

Additional observations from a re-analysis of the deposited data

How the results depend on the processing

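All 10 members kept a positive log2 change under every alternative that tested them, and 6 (Bax, Pmaip1, Eda2r, Pidd1, Phlda3 and Aen) kept their call in each, Bax with an adjusted p of 0.0499 at most. The number called among the 10 was 9, and it was 7 to 9 with each heart left out, 8 with the replicate block (Perp lost, adjusted p = 0.0821), 6 of 10 without a filter and 6 of the 7 tested at a minimum mean of 5 FPKM. Among 70 tested genes of the pathway lists, each counted once, 17 were called. The number was 8 without a filter, 29 with array weights, 11 with the replicate block and 6 to 20 with each heart left out. Of all genes 1761 were called, against 641 without a filter, 2784 with array weights, 541 with the replicate block and 359 to 1788 with each heart left out (359 without flox replicate 1, 472 without flox replicate 2, 744 without CKO replicate 3). The cause of these differences was not tested. Without a filter the number of genes tested was larger, at 28188. TPM and scaling by total counts moved the median of all genes to 0.13 and 0.11 and the share of called genes that were higher from 49.1% to 69.0% and 66.4%. Relative to that shift all 10 members were still higher. Pmaip1, with 4 to 12 counts in flox hearts, has the least certain fold. Hearts with the same number did not deviate together across the groups (correlations −0.283, −0.137 and −0.192 for numbers 1, 2 and 3). With 3 hearts in a group these values cannot settle whether the numbers mark a pairing, and the labels state none.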

Other observations

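The letters CACGTG, the E-box bound by MYC and related factors, were searched after the windows had been read. The shares are therefore a description and test no link to a factor. They occurred in at least 1 window of 5 of the 7 members with a window (Bax, Bbc3, Aen, Fas and Eda2r), against 8.09% of all symbols, 2 of 10 paralogs of the members, 1 of 14 regulators of p53, 0 of 18 other p53 targets and none of the 3 remaining lists (0 of 9, 0 of 11 and 0 of 11). Bax held them at 2 places. Fas, which was not called, is among the 5, and Phlda3, with the largest change of log2(FPKM + 1), is not.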
